A study of Mus musculus with 30 samples.

Results

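Metoprolol given before bright light was compared with bright light alone in the mouse retina. The members are the 3 libraries labelled metoprolol (MTP) and the 3 light libraries of the single-drug experiment that received the solvent DMSO, chosen by their labels, 6 of 30 libraries in the series. All mice carried Abca4-/-Rdh8-/- on a C57BL/6J background and were 4 to 6 weeks old, so the controls lack the same genes as the treated animals. They were kept in 12 h of light, at most 10 lux, and 12 h of dark. Drug or DMSO was injected 30 min before 10000 lux for 30 min, and the neural retina was collected 24 h after that exposure. A group without bright light received DMSO (3 libraries), and further groups received light after bromocriptine (BRM), tamsulosin (TAM) or doxazosin (DOX), 3 libraries each. A separately run mixture experiment had light and no-light groups of its own and light after the mixtures BMT and MDB, both of which hold metoprolol. No group received metoprolol without light. Nothing in the labels says that each library came from its own animal, so p-values measure the spread between libraries.

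Metoprolol blocks the beta-1 adrenergic receptor, the product of Adrb1, which signals through the stimulatory G protein to adenylyl cyclase and cyclic AMP. Abca4 flips and Rdh8 reduces all-trans-retinal, the bleached chromophore, so that outer segments of photoreceptors are rid of it. Without both, bright light leaves the retina with excess retinal, photoreceptors degenerate, and Müller glia and the innate immune system respond. The question the design puts is how far the drug moved the 24 h transcriptome away from that of untreated illuminated retina.

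Gene counts summed to 17.6 to 20.2 M in the metoprolol libraries and 19.0 to 22.2 M in the light libraries. Retinal markers were abundant in all 6, with Gnat1, the rod transducin, between 4930 and 13780 CPM (counts scaled by TMM to 1 M per library) and Grm6, the receptor of ON bipolar cells, between 37.4 and 62.4 CPM. Lens transcripts differed between libraries. The summed level of 6 lens-fibre genes was 464 to 592 CPM in the light libraries but 14.9, 15.1 and 1252 CPM in the metoprolol libraries, where replicate 2 was the high one, and none of the 6 genes was at 0 throughout either group. The summed level of 16 crystallin genes was 13670 to 16730 CPM in the light libraries and 817, 1022 and 32890 CPM in the metoprolol libraries. Every call was therefore also computed with a lens-fibre score as a covariate, which averages the 6 lens-fibre genes on the log2 scale. Summed markers of red blood cells were 65.8 to 175 CPM in light and 32.0 to 56.9 CPM after metoprolol, and those of cornea and iris 21.4 to 41.6 and 2.33 to 16.5 CPM. The part of these other tissues in the results below was not tested beyond the lens covariate.

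Of 16249 genes tested with edgeR's quasi-likelihood test, 873 were higher after metoprolol (5.37%) and 798 lower (4.91%) at a Benjamini-Hochberg adjusted p under 0.05, together 1671 genes or 10.3%. The 3 metoprolol libraries lay wholly outside the range of the 3 light libraries for 4834 genes, 29.7%. The falls were larger than the rises: called genes had a median log2 fold change of -0.82 when lower and 0.54 when higher, and 316 fell at least 2-fold against 124 that rose at least 2-fold. With the lens-fibre score in the model 1307 of the 16249 genes were called, 661 higher and 646 lower. Each list count with the lens covariate below stands beside these. Of the 1671 genes, 1177 were called again in the same direction. Leaving out light replicate 2 left 801 calls, metoprolol replicate 1 left 882, metoprolol replicate 3 left 1002 and light replicate 1 left 1097.

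The 12 largest falls and 12 largest rises were ranked among genes called with and without the lens covariate, at a mean log2 CPM of at least 1. The largest fall was in Prss56 (ENSMUSG00000036480, chromosome 1, 87183313 to 87188405 in GRCm38.p3), a secreted serine protease. Its level was 0.805, 2.18 and 2.42 CPM without light, 133, 168 and 189.5 CPM after light and 3.03, 7.99 and 2.60 CPM after metoprolol and light. All metoprolol libraries were far below all light libraries, with replicate 2 the highest of them, and the log2 fold change was -5.18 ± 0.99 (SE), adjusted p = 0.00432. Interferon-induced and antigen-presentation genes supplied most of the other large falls. Nlrc5, the transactivator of MHC class I genes (ENSMUSG00000074151, chromosome 8, 94472763 to 94527272), stood at 10.6, 15.1 and 14.8 CPM in the light libraries and 0.407, 0.506 and 0.490 CPM in the metoprolol libraries, a change of -4.83 ± 0.75 (SE), adjusted p = 0.00175. Tap1, the peptide transporter that loads MHC class I (ENSMUSG00000037321, chromosome 17, 34187553 to 34197225), stood at 15.4, 19.1 and 26.9 CPM in the light libraries and 1.28, 1.41 and 0.343 CPM in the metoprolol libraries and changed by -4.35 ± 0.56 (SE), adjusted p = 0.000816. Both genes had a wide gap between light and metoprolol. Without light Nlrc5 stood at 0.302, 0.186 and 0.263 CPM, just under the metoprolol libraries, and Tap1 at 1.41, 0.790 and 0.738 CPM, overlapping them. Usp18, a protease that removes ISG15 and limits interferon signalling, changed by -4.42. Map3k8, a kinase of inflammatory MAP kinase signalling, changed by -4.45 (adjusted p = 0.000801). The interferon-induced GTPases Irgm2, Irgm1 and Igtp changed by -3.89, -3.74 and -3.51, and Irf8, an interferon-responsive transcription factor, by -2.97. Irgm2 and Igtp overlap on chromosome 11, so reads may be split between them. The acute-phase and glial injury genes A2m (-3.22), Steap4 (-3.20) and Lcn2 (-3.03) completed the 12. The Steap4 call was lost when metoprolol replicate 1 or 3 or light replicate 2 was left out.

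The largest rise in the same ranking was in Glb1l3, a beta-galactosidase-like gene (ENSMUSG00000031966, chromosome 9, 26817953 to 26860823). It stood at 1.15, 0.660 and 0.953 CPM in the light libraries and 9.08, 8.44 and 10.8 CPM in the metoprolol libraries, a change of 3.35 ± 0.43 (SE), adjusted p = 0.000816. Hdc, which makes histamine from histidine (ENSMUSG00000027360, chromosome 2, 126593667 to 126619299), went from 1.41, 0.801 and 0.953 CPM to 6.00, 6.58 and 4.41 CPM, at 2.41 ± 0.41 (SE), adjusted p = 0.00262. Opn1sw, the opsin of short-wavelength cones (ENSMUSG00000058831, chromosome 6, 29376671 to 29388468), stood at 210.0, 128 and 199.7 CPM in the light libraries and 629.7, 558 and 536 CPM in the metoprolol libraries, and changed by 1.68 ± 0.25 (SE), adjusted p = 0.00145. Glul, with which Müller glia turn glutamate into glutamine (ENSMUSG00000026473, chromosome 1, 153899944 to 153909723), stood at 425, 394 and 419 CPM in the light libraries and 1214, 1198 and 1504 CPM in the metoprolol libraries, a change of 1.66 ± 0.27 (SE), adjusted p = 0.00222. In these 4 genes the lowest metoprolol library was above the highest light library. BC055402 (2.46), Gm9752 (2.24), Ccdc24 (1.71), Fndc1 (1.69), Ppap2c (1.63), a lipid phosphatase, 3010001F23Rik (1.62) and 2810030D12Rik (1.59) were also among the 12. The calls of Fndc1 and Gm9752 were lost when any of several single libraries was left out, for Fndc1 each of the 6.

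**Figure D1:**
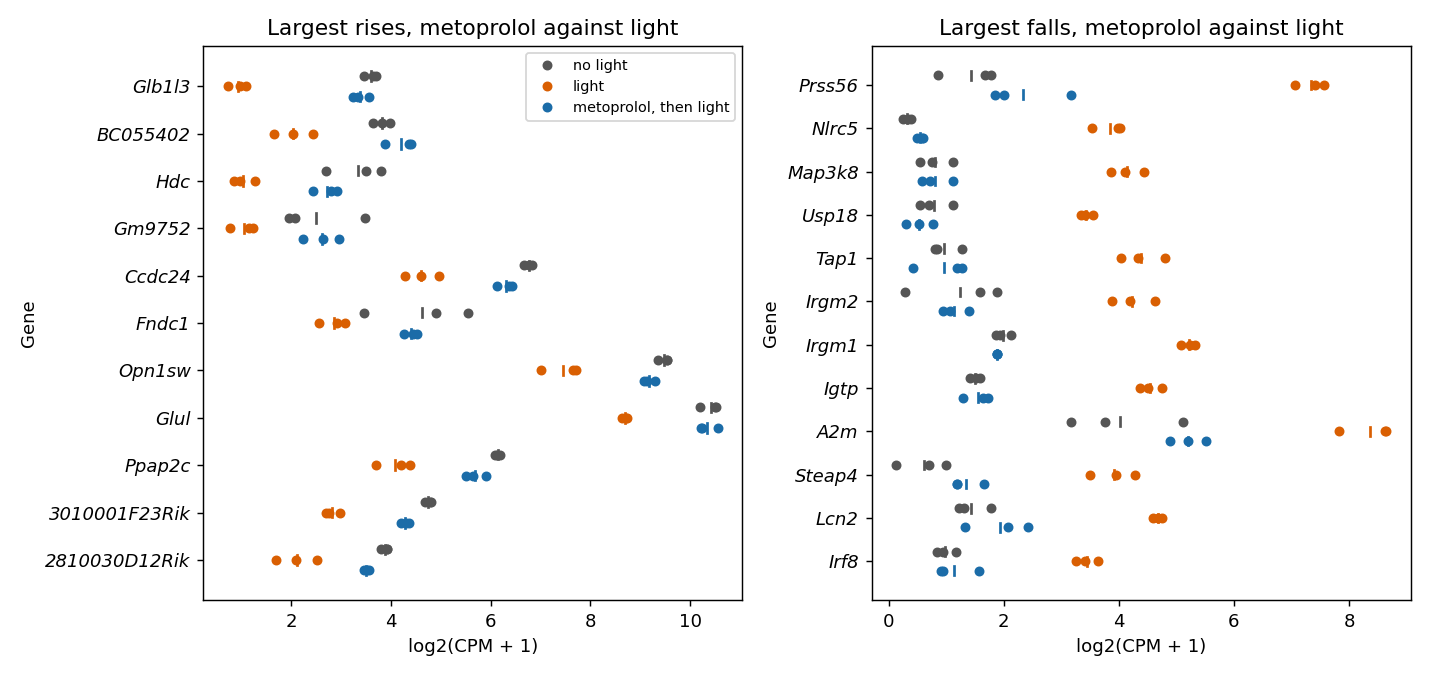
Level of 11 of the 12 largest rises (left) and 12 largest falls (right), as log2(CPM + 1), with 1 point per library and a bar at the mean of 3 libraries, without light (grey), after light (orange) and after metoprolol and light (blue). The blue points lie apart from the orange ones in every gene shown. How near they lie to the grey ones varies by gene. In the authors' log2 fold changes against light, Steap4 stood at -3.20 after metoprolol and -5.07 without light, and Usp18 at -4.47 and -3.78.

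Promoters of the first 3 rises and first 3 falls that have an entry in the RefSeq table (build GRCm38.p6, 250 bases before to 50 after the start) are printed to show what sequence lies at genes of opposite response. Capitals mark matches, on either strand, to the CREB site TGACGTCA, the STAT site TTCNNNGAA, the AP-1 site TGANTCA, the photoreceptor CRX site TAATCC and the interferon regulatory factor site GAAANNGAA, the last added after the values were seen.
Glb1l3, chr9:26860774-26861073, minus strand: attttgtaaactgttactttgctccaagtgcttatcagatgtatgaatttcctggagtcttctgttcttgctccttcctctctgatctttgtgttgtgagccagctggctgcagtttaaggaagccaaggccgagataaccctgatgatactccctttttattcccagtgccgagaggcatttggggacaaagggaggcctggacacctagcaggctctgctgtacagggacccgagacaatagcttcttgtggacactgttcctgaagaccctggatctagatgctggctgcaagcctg
BC055402, chr1:57214947-57215246, minus strand: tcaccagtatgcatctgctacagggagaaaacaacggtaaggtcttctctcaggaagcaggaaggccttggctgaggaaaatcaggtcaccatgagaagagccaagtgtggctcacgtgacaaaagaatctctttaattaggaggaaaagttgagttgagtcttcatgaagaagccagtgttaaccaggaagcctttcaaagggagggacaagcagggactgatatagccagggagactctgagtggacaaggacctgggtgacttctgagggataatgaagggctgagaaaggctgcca
Hdc, chr2:126618629-126618928, minus strand: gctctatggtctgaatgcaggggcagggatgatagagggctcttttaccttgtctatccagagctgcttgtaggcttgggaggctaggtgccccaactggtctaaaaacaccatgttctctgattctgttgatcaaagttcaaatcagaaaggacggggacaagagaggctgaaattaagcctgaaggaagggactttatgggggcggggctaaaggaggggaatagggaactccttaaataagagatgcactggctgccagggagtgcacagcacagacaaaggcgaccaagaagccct
Prss56, chr1:87183064-87183363, plus strand: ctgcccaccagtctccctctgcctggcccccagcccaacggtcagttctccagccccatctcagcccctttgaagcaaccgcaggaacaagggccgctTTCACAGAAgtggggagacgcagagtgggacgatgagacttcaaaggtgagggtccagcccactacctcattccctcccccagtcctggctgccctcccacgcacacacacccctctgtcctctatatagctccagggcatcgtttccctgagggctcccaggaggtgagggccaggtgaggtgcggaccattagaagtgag
Tap1, chr17:34187306-34187605, plus strand: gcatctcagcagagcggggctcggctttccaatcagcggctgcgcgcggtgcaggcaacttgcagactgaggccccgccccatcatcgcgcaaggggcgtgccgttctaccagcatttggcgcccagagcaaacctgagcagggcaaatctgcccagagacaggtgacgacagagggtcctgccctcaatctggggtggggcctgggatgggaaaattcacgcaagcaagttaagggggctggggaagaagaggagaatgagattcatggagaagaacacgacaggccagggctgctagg
Irgm2, chr11:58214727-58215026, plus strand: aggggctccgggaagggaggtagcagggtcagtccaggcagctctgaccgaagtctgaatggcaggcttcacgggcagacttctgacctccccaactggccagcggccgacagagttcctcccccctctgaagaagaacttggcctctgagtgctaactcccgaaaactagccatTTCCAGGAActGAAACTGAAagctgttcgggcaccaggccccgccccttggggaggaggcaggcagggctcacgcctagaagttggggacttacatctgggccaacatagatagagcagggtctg
Prss56 held 1 STAT match, and Irgm2 held 1 STAT match and 1 interferon regulatory factor match. None of the 3 rises held any of the 5 motifs in this window, nor did Tap1. Over all 27025 promoters of the table the CREB site was found in 1.88%, the STAT site in 8.47%, the AP-1 site in 7.93%, the CRX site in 7.16% and the interferon regulatory factor site in 8.57%. These are matches of letters and not measured binding.

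Interferon and MHC class I genes fell almost without exception. This list and those below were chosen with earlier results of these data known. Their counts beside all genes are description and not a test. Of 35 list members tested, 34 were called lower and 0 higher, where 4.91% of all genes were lower, and all 35 had groups that did not overlap (29.7% of all genes). Their median log2 fold change was -2.41 against -0.01 over all genes tested. Oasl2, an interferon-induced 2'-5'-oligoadenylate synthetase-like protein, stood at 27.7, 32.3 and 30.9 CPM in the light libraries and 4.13, 5.23 and 3.53 CPM in the metoprolol libraries, -2.82 ± 0.22 (SE), adjusted p = 1.05e-05. Parp14, an ADP-ribosyltransferase, changed by -2.92 ± 0.27 (SE), adjusted p = 3.91e-05, and Gbp7, a guanylate-binding protein, by -2.41. Irf9, which helps carry the interferon signal to DNA, changed by -2.18. The class I heavy chains H2-K1 and H2-D1 changed by -1.63 and -1.75, and their light chain B2m by -1.37. Isg15 missed the threshold at -1.60 ± 0.56 (SE), adjusted p = 0.0827. Reads of near-identical Gbp, Ifit and H2 genes may be shared between family members. With the lens covariate 32 of the 35 were called lower.

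Glial injury genes fell as well. Of 22 gliosis list members tested, 13 were called lower, where 4.91% of all genes were lower, and 0 higher, with a median of -2.02. The groups did not overlap in 20, beside 29.7% of all genes. Serpina3n, an acute-phase protease inhibitor, changed by -3.91, Timp1, a metalloprotease inhibitor, by -3.46, and Fgf2, a survival factor for photoreceptors, by -1.85. Edn2 (ENSMUSG00000028635, chromosome 4, 120161206 to 120167360), the endothelin of stressed photoreceptors, stood at 4.83, 0.883 and 1.16 CPM without light, 28.6, 32.3 and 30.2 CPM after light and 3.67, 7.65 and 3.53 CPM after metoprolol and light, -2.62 ± 0.70 (SE), adjusted p = 0.0257. Edn2 was not among the DESeq2 calls, where the 38 genes given no adjusted p count as not called. Its edgeR call was lost when any of 5 single libraries of these groups was left out. Gfap (ENSMUSG00000020932, chromosome 11, 102887336 to 102900912), a filament protein that glia make on injury, stood at 32.2, 19.1 and 21.1 CPM without light, 264, 284 and 301 CPM after light and 100.2, 119 and 81.3 CPM after metoprolol and light. Its metoprolol libraries were all below the light libraries and all above those without light, and the fold change against light did not pass the test (-1.498 ± 0.59 (SE), adjusted p = 0.125). That test shares its spread with TAM replicate 2, whose Gfap was 258 CPM beside 25.0 and 39.0 CPM in the other two. Without that library the adjusted p was 0.00123, and with only the groups compared in the fit it was 0.00139. Vim, Cd44 and S100a6 changed by -1.38, -2.01 and -2.03 and were not called. Of 21 tested members of the gp130 cytokine list, 7 were called lower (4.91% of all genes) and 0 higher, with a median of -1.05. Osmr, the oncostatin M receptor, stood at 128, 132 and 153 CPM in the light libraries and 21.8, 31.5 and 16.1 CPM in the metoprolol libraries, -2.58 ± 0.62 (SE), adjusted p = 0.0159. The Osmr call was lost without metoprolol replicate 1 or 3 (adjusted p at most 0.0711). Il6ra (-2.47), Socs1 (-3.66) and Bcl3 (-2.88) were also lower, whereas Stat3 (-1.18) and Socs3 (-2.39) were not called. The gp130 count was 4 with the lens covariate.

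Inducible transcription factors and inflammatory regulators were partly lower. Each count of lower genes here stands beside 4.91% of all genes, and each count of higher genes beside 5.37%. Of 26 immediate early genes tested 11 were called lower and 0 higher (median -1.10). Egr1 stood at 58.4, 74.9 and 58.6 CPM in the light libraries and 11.3, 11.9 and 8.82 CPM in the metoprolol libraries, -2.58 ± 0.49 (SE), adjusted p = 0.00442, and Atf3 and Nr4a1 changed by -2.18 and -1.43. Fos changed by -1.28 without passing the test. Of 17 NF-kappaB genes 7 were lower and 1 higher. Relb and Nfkb2, subunits of the alternative pathway, changed by -2.11 and -2.13. Tnfaip3, which restrains NF-kappaB, went against the list at 142, 115 and 129 CPM in the light libraries and 338, 316 and 324 CPM in the metoprolol libraries, 1.34 ± 0.18 (SE), adjusted p = 0.000981. Of 23 cell death genes 6 were lower and 1 higher. Ripk1, the kinase of necroptosis, changed by -1.49. Of 13 chemokine and adhesion genes tested of 20 listed, 6 were lower and 0 higher, with a median of -1.53. Vcam1, an endothelial adhesion molecule, changed by -1.53 ± 0.24 (SE), adjusted p = 0.00205. Ccl2, the monocyte attractant, stood at 3.75, 3.35 and 4.68 CPM in the light libraries and 0.524, 0.0563 and 0 CPM in the metoprolol libraries, -4.36 ± 1.23 (SE), adjusted p = 0.034, a fold resting on low counts. It lost its call with any of 5 single libraries of these groups left out. Complement members Cfi (-3.09) and C3 (-1.92) were among 4 of 15 called lower, and Spp1 (-1.07) and Tgfbi (-1.88) among 4 of 17 wound matrix and YAP target genes. With the lens covariate the counts lower were 8 immediate early, 6 NF-kappaB, 4 cell death, 5 chemokine, 2 complement and 4 matrix genes. Under that model 646 of all 16249 genes were lower. The Tgfbi call was lost without metoprolol replicate 1 or 3 or light replicate 3.

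**Figure D2:**
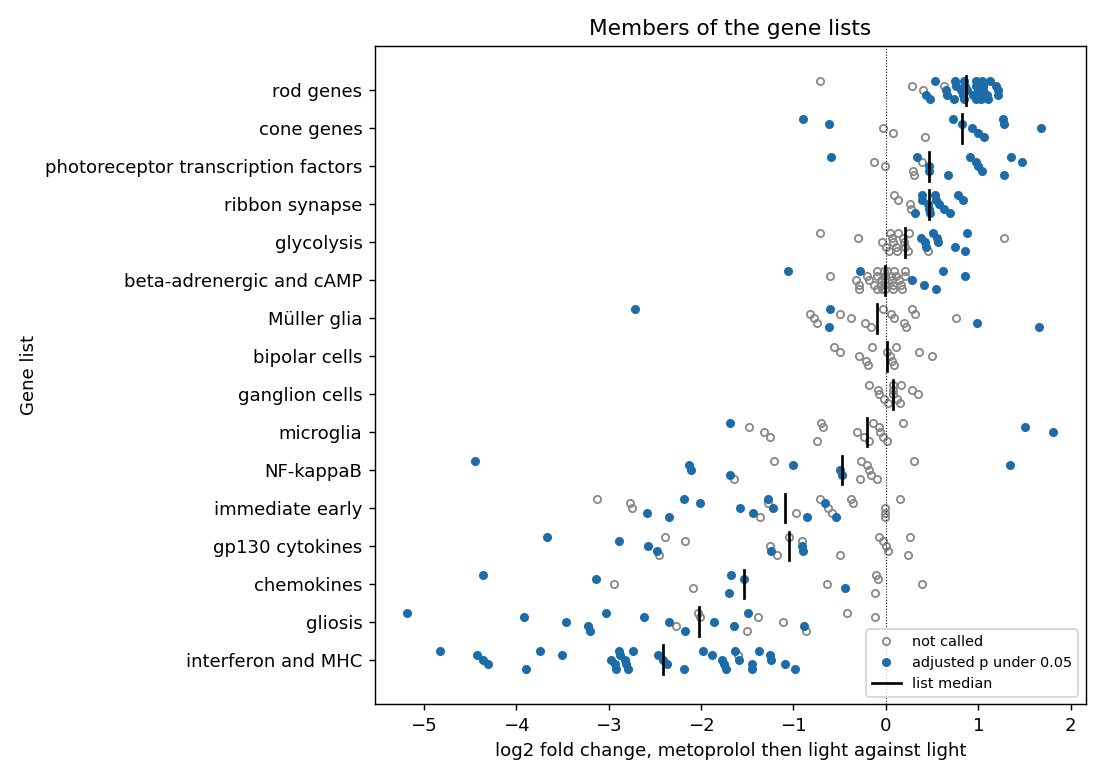
Log2 fold change of metoprolol then light against light for every tested member of 16 gene lists (1 point per gene, filled where the adjusted p was under 0.05, bar at the list median). The interferon list lies wholly left of 0, with a median of -2.41, and the rod list mainly right of 0, with a median of 0.87.

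Of 18 microglial genes tested 3 were called, where 10.3% of all genes were. P2ry12, a marker of resting microglia, rose from 0.979, 0.613 and 0.787 CPM to 2.21, 3.21 and 2.99 CPM (1.81 ± 0.35 (SE), adjusted p = 0.00452), and Tmem119 changed by 1.51. Cd14, an endotoxin co-receptor, changed by -1.68, and its call was lost without metoprolol replicate 1 or 3 or any 1 light library. The Tmem119 call was lost without light replicate 2. The summed level of the list was 84.9 to 92.2 CPM after light and 72.2 to 90.5 CPM after metoprolol, overlapping ranges.

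Photoreceptor genes rose. Of 34 rod genes tested 30 were called higher and 0 lower, where 5.37% of all genes were higher, with a median of 0.87. Gnb1, a transducin beta subunit, stood at 9135, 8915 and 10050.0 CPM without light, 3669, 2767 and 3366 CPM after light and 8081, 6923 and 7368 CPM after metoprolol and light, 1.19 ± 0.18 (SE), adjusted p = 0.00145. Gnat1 and Pde6b, a subunit of the rod phosphodiesterase, changed by 1.04 and 1.00. Gucy2f, a guanylate cyclase of outer segments, stood at 251, 201 and 214 CPM in the light libraries and 515, 457 and 486 CPM in the metoprolol libraries, 1.13 ± 0.15 (SE), adjusted p = 0.000835. In bulk tissue more rods and more RNA per rod cannot be told apart. Abca4, whose transcript is still counted in these mice, stood at 374, 319.8 and 368 CPM in the light libraries and 674, 633 and 648 CPM in the metoprolol libraries, 0.88 ± 0.13 (SE), adjusted p = 0.00151, and Rdh8 changed by 0.44 ± 0.15 (SE), adjusted p = 0.0813. Whole-gene counts do not check either deletion. Impg2 (-0.71), Rpgrip1 (0.62), Aipl1 (0.40) and Rbp3 (0.28) were the rod genes not called.

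Each count of higher genes here stands beside 5.37% of all genes, and each count of lower genes beside 4.91%. Of 13 cone genes 8 were higher and 2 lower. Opn1mw, the medium-wavelength opsin, changed by 1.06 ± 0.14 (SE), adjusted p = 0.000835, and Gnat2, the cone transducin, by 1.26 ± 0.18 (SE), adjusted p = 0.00109. The 2 called lower were Gnb3 (-0.90), the cone counterpart of Gnb1, and Pde6c (-0.61), the cone phosphodiesterase. Pde6c stood at 159, 163 and 154 CPM in the light libraries and 112, 104 and 94.6 CPM in the metoprolol libraries, so that its direction was opposite to that of the opsins. Among 17 photoreceptor transcription factors 11 were higher and 1 lower. Nrl and Nr2e3, which set rod identity, changed by 1.28 and 1.47, Crx by 0.91, and Neurod1 was the one lower, at -0.60. Of 17 ribbon synapse genes 13 were higher and 0 lower (median 0.46). Slc17a7, the vesicular glutamate transporter, and Cacna1f, the photoreceptor calcium channel, changed by 0.83 and 0.69. The Cacna1f call was lost on FPKM of its most abundant transcript with either pseudocount (adjusted p at most 0.525). Glycolysis and lactate genes followed with 9 of 27 higher and 0 lower. Hk2, the hexokinase of photoreceptors, stood at 308, 244 and 286 CPM in the light libraries and 514, 504 and 494 CPM in the metoprolol libraries, 0.85 ± 0.15 (SE), adjusted p = 0.0031, and the lactate transporter Slc16a1 changed by 0.74. With the lens covariate the counts higher were 28 rod, 8 cone, 10 transcription factor, 8 ribbon synapse and 6 glycolysis genes. Under that model 661 of all 16249 genes were higher.

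Genes of Müller glia were called in both directions, 5 of 20 tested, where 10.3% of all genes were called. Of these 2 were higher, Glul and Abca8a (0.98), and 3 lower, Crym (-2.71), the glutamate transporter Slc1a3 (-0.62) and Sox9 (-0.60). The Slc1a3 call was lost with only the groups compared in the fit and without metoprolol replicate 1 or light replicate 1 or 2. Crym, a thyroid hormone binding protein, stood at 25.2, 31.8 and 30.4 CPM without light, 265, 359 and 290.0 CPM after light and 44.5, 51.7 and 43.2 CPM after metoprolol and light. None of 13 bipolar, 15 amacrine and horizontal and 13 ganglion cell genes was called by edgeR, with list medians of 0.01, 0.10 and 0.08. At an unadjusted p under 0.05 there were 5, 2 and 0, DESeq2 called 1, 2 and 0, and limma voom called 0 in each. Of 12 visual cycle genes Rdh12 (0.82) and Dhrs3 (0.74), which reduce retinal, were higher, where 5.37% of all genes were higher. Kdr, the VEGF receptor of endothelium, was the only one of 15 vascular genes called (-0.86), where 10.3% of all genes were called. Its call was lost without metoprolol replicate 1 or 2 or light replicate 2. The summed level of the vascular list was 343 to 476 CPM after light and 254 to 350 CPM after metoprolol.

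Adrb1, the gene of the drug's own target, was higher after metoprolol. It (ENSMUSG00000035283, chromosome 19, 56722372 to 56724862) stood at 17.4, 15.5 and 17.2 CPM without light, 10.6, 9.66 and 8.57 CPM after light and 15.2, 12.7 and 16.5 CPM after metoprolol and light. All metoprolol libraries were above all light libraries, 0.62 ± 0.15 (SE), adjusted p = 0.0172, and the call was lost with the lens covariate (adjusted p = 0.053) and without metoprolol replicate 1 or 3 or light replicate 2 or 3. Per transcript length its level in the authors' FPKM was 7.30 ± 0.46 without light, 4.29 ± 0.47 after light and 6.52 ± 0.84 after metoprolol (SD, n = 3). Adrb3 was at most 0.148 CPM in these libraries and was not tested. Of 37 tested beta-adrenergic and cyclic AMP genes 5 were higher and 2 lower, beside 5.37% and 4.91% of all genes, with a median of -0.01. The groups did not overlap in 11 of the 37, beside 29.7% of all genes, and with the lens covariate 2 were higher and 3 lower. Adcy6, an adenylyl cyclase, stood at 62.0, 52.6 and 61.6 CPM in the light libraries and 106, 111 and 103 CPM in the metoprolol libraries, 0.86 ± 0.14 (SE), adjusted p = 0.00236. Crem, a cyclic AMP responsive transcription factor, stood at 30.4, 32.0 and 31.6 CPM in the light libraries and 15.8, 15.5 and 13.8 CPM in the metoprolol libraries, -1.06 ± 0.17 (SE), adjusted p = 0.00197. The Crem call was lost on FPKM of its most abundant transcript with either pseudocount (adjusted p at most 0.346). Pde10a, a cyclic nucleotide phosphodiesterase, changed by 0.54 ± 0.14 (SE), adjusted p = 0.0211, and its call was lost without metoprolol replicate 2 or 3 or light replicate 1 or 3 and on FPKM. Grk5 (0.41) and Prkar2a (0.29) were also higher, and Atf1 (-0.28) lower. Gnas, the stimulatory G protein, and the kinase subunit Prkaca changed by -0.18 and 0.07 and were not called. Among 10 other monoamine receptors only Drd4, the dopamine receptor of photoreceptors, was called, where 10.3% of all genes were called. Drd4 changed by 1.10 ± 0.32 (SE), adjusted p = 0.0404 (lens covariate adjusted p = 0.0617), and its call was lost in 11 of 24 refits.

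**Figure D3:**
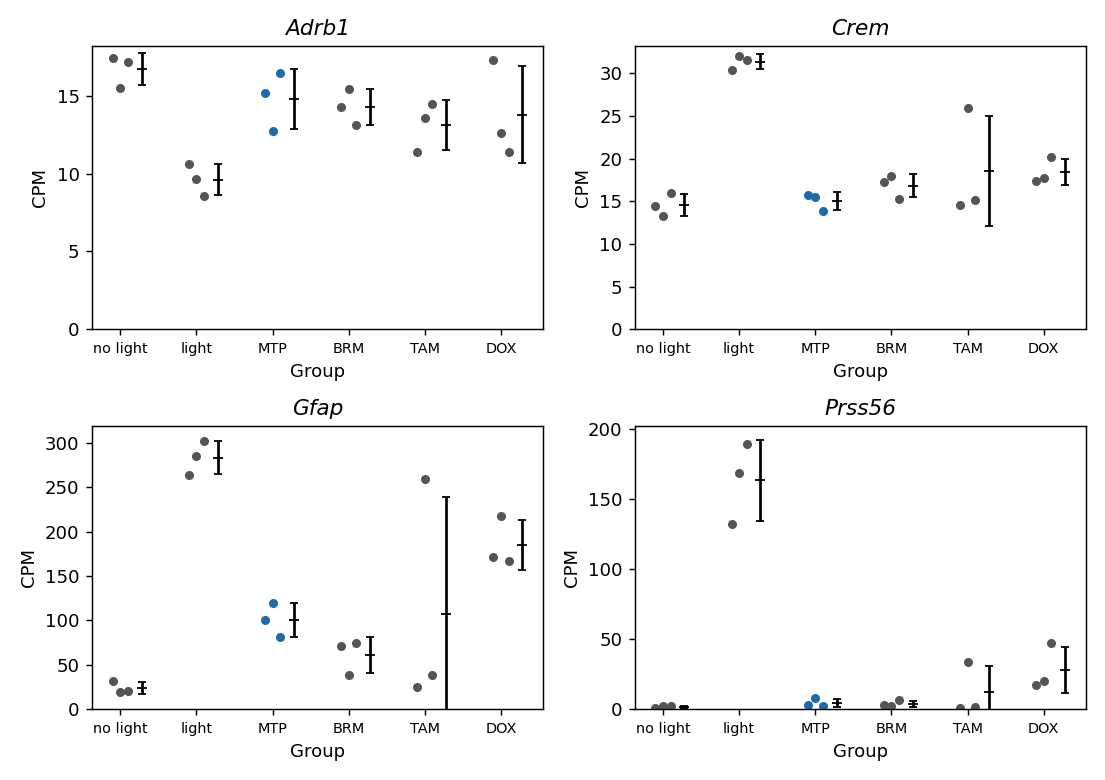
CPM of Adrb1, Crem, Gfap and Prss56 in each library (points; metoprolol, MTP, in blue) of the 6 groups of the single-drug experiment, with the mean and SD of 3 libraries beside them. The metoprolol libraries lie near the libraries without light for Adrb1, Crem and Prss56 and between light and no light for Gfap, and 1 TAM library is high for Gfap.

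Genes that light had changed in the mixture experiment, which shares no library with this comparison, gave an outside list. Of 554 genes raised at least 2-fold by light there and tested here, 305 were lower after metoprolol (55.1%, against 4.91% of all genes) and 0 higher, with a median of -1.24. Of 101 genes lowered at least 2-fold, 68 were higher (67.3%, against 5.37%) and 0 lower, with a median of 1.19. The remaining 249 and 33 genes did not pass the test. Measured as a difference from the mean of the light libraries, the median raised gene stood at -1.24, -1.01 and -1.498 in the 3 metoprolol libraries and at -1.30, -1.61 and -1.68 without light. For the lowered genes the medians were 1.32, 1.09 and 1.18 after metoprolol and 1.499, 1.47 and 1.55 without light. Metoprolol replicate 2, the library rich in lens transcripts, had the smallest shift of the 3 metoprolol libraries in both lists. Whether its lens content bears on that shift was not tested. The 305 became 171 without metoprolol replicate 1, 168 without metoprolol replicate 3 and 170 without light replicate 2.

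**Figure D4:**
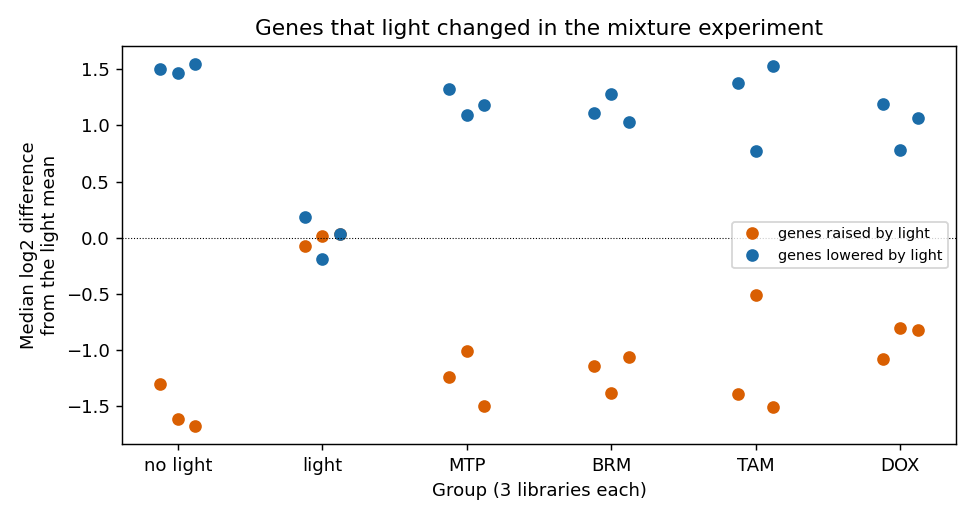
Median log2 difference from the mean of the light libraries, for genes raised (orange) or lowered (blue) at least 2-fold by light in the mixture experiment, with 1 point per library of the 6 groups of the single-drug experiment. The metoprolol (MTP) libraries lie between -1.01 and -1.498 and between 1.09 and 1.32, on the side of the libraries without light.

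Metoprolol then light was also compared with no light. Of 16249 genes 0 were called by edgeR (0%), 1395 had an unadjusted p under 0.05, limma voom called 0 and DESeq2 called 3. Those 3, named after their values were seen, were 6330403K07Rik (0.70), Hace1 (0.37), a ubiquitin ligase, and Egln1 (-0.30), an oxygen sensor. Gfap differed by 2.05 ± 0.61 (SE; unadjusted p = 0.00407, adjusted p = 0.581), and was called without TAM replicate 2 (adjusted p = 0.0214), as was 6330403K07Rik. Esrrb, a rod transcriptional regulator, differed by -0.46 ± 0.14 (SE; unadjusted p = 0.00518, adjusted p = 0.581) and Osmr by 1.52 ± 0.63 (SE; unadjusted p = 0.0281, adjusted p = 0.581). The median gene raised by light in the mixture experiment stood 0.29 above, and the median lowered gene at -0.30 against, the level without light. A p that misses the threshold does not show that the groups are alike: genes with a mean log2 CPM of at least 1 had a median SE of 0.14.

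Against the mean of the other drugs given before light, 0 of 16249 genes were called by edgeR (0%), with 635 at an unadjusted p under 0.05, 0 by limma voom and 5 by DESeq2. Of the 5, named after their values were seen, mt-Nd4l (0.51) and Hace1 (0.29) were higher and Gm29216 (-0.91) lower, while Gm7887 and AC107830.1 rested on very low counts. That mean holds TAM replicate 2, in which the median genes raised and lowered by light in the mixture experiment stood at -0.51 and 0.77 from the light libraries, beside -1.39 and 1.38 in TAM replicate 1 and -1.502 and 1.53 in TAM replicate 3. Without TAM replicate 2 edgeR also called 0 genes, with 707 at an unadjusted p under 0.05. Irgm1 differed by -0.72 ± 0.32 (SE; unadjusted p = 0.0378, adjusted p = 0.95) and Prss56 by -1.31 ± 0.79 (SE; unadjusted p = 0.117, adjusted p = 0.95). The effect of metoprolol was set against that of each mixture, each relative to its own light group, in a fit of all 30 libraries. Of 16645 genes, edgeR called 0 for BMT (0%) with 2023 at an unadjusted p under 0.05, and 0 for MDB (0%) with 1238. Limma voom called 0 for both. DESeq2 called 58 for BMT, 42 higher and 16 lower, and 38 for MDB, all higher, with no adjusted p given for 10329 and 15491 of the 16645 genes. Prss56 changed by -5.18 with metoprolol, -6.02 with BMT and -6.22 with MDB, and the difference from BMT was 0.85 ± 1.12 (SE; adjusted p = 0.8). Gfap changed by -1.498, -2.44 and -2.88, with a difference from MDB of 1.40 ± 0.76 (SE; adjusted p = 0.688). Opn1sw changed by 1.68, 1.74 and 1.43, and Nlrc5 by -4.83, -5.05 and -4.64. For Opn1sw the difference from BMT was -0.05 ± 0.35 (SE; adjusted p = 0.976).

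The authors' deposited table of changed transcripts in the single-drug experiment lists 622 transcripts of 567 genes. In the authors' deposited table the log2 fold change of metoprolol against light was above 0 for 299 transcripts and below 0 for 323. The adjusted p of that table is over all groups of the single-drug experiment. A listed transcript therefore need not differ between metoprolol and light, and that of Ppp1r35 stood at -0.02.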

How the data were processed

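RNA of neural retina was sequenced with a stranded poly(A) protocol, per the labels' protocols. The submitters' processing notes name Trimmomatic, Bowtie2, TopHat2, eXpress, edgeR, limma and GRCm38.p3, without versions. Expected counts per transcript, not normalized, are what the authors deposited as count tables. The deposited FPKM values, log2 fold changes and adjusted p-values are the authors' own. Expected counts of 102906 transcripts were added up within 42439 gene identifiers, then rounded. After filterByExpr and TMM scaling, 1 model held all 18 single-drug libraries, tested by quasi-likelihood in edgeR 4.0.16 (R 4.3.3), two-sided, adjusted by Benjamini-Hochberg over all genes tested. The SE is the absolute log2 fold change over the square root of F. Depth was 12.0 to 22.2 M gene counts per library; it limits genes with few counts most.

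The genes and lists named were chosen with earlier results of these data known. Named genes are the 12 largest rises and 12 largest falls among genes called with and without the lens covariate at a mean log2 CPM of at least 1, the 4 members of each list with the smallest adjusted p, and Adrb1, Adrb3, Abca4, Rdh8, Opn1sw, Opn1mw, Gfap, Edn2, Ccl2, Glul and Prss56, among others. Values of a few such genes are left out here. Further list members, and members that went against their list, were chosen after their values were seen. Alternatives were RLE size factors, no filter, DESeq2 1.42.0, limma voom (3.58.1), the replicate block, the lens covariate, only the groups compared, FPKM per transcript (limma on log2 with a pseudocount of 1 or 0.1), an adjusted p under 0.01, other definitions of the light genes and each library left out. Leaving out BRM, TAM and DOX libraries and the interferon regulatory factor motif were added after the values were seen. The tests were checked on simulated data. Promoters come from RefSeq (GRCm38.p6), where 16 of the 24 largest rises and falls had an entry.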

Additional observations from a re-analysis of the deposited data

How the results depend on the processing

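The 1671 calls of metoprolol against light numbered 2289 with DESeq2, 1965 with limma voom, 1731 with RLE size factors and 1609 with only the groups compared. They numbered 1563 with the replicate block, 1082 on FPKM with a pseudocount of 0.1 and 659 at an adjusted p under 0.01. With single libraries left out they ran from 801 to 1959, highest without TAM replicate 2. Rises and falls were 873 and 798 in the main fit and 993 and 738 with RLE size factors. Falls were the more numerous with limma voom (906 and 1059) and with only the groups compared (738 and 871). Light-raised genes called lower ranged from 168 to 391 with single libraries left out, and lowered genes called higher from 57 to 72. Of lowered genes at 4-fold or more, 21.4% were called higher, over 14 genes. Against no light, DESeq2 called 3 genes, FPKM with a pseudocount of 1 called 1, and leaving out single libraries gave 0 to 2. Against the other drugs, DESeq2 called 5 and FPKM with a pseudocount of 1 called 1. Against BMT, DESeq2 called 58 and single libraries left out gave 0 to 1, and against MDB DESeq2 called 38. The cause was not tested. Of 102 named genes called, 64 kept their call in every refit judged at an adjusted p under 0.05 (up to 24 a gene; the 0.01 threshold is not among them), 9 lost it with the lens covariate, and none changed sign. Same-numbered metoprolol and light libraries deviated from their group means with correlations of -0.04, -0.05 and -0.15. Differently numbered ones ran from -0.11 to 0.16. With 3 libraries a group such correlations cannot settle whether libraries of the same number were handled together. The replicate block models the numbers, and what they stand for was not tested. Among the other drugs the same-numbered correlations with metoprolol were 0.128, 0.437 and 0.30 for DOX, 0.033, -0.13 and -0.11 for BRM, and -0.17, -0.18 and 0.14 for TAM. Differently numbered ones ran from -0.33 to 0.10 for DOX, -0.08 to 0.16 for BRM and -0.23 to 0.35 for TAM. Metoprolol replicate 2 correlated at 0.437 with DOX replicate 2 and 0.35 with TAM replicate 1. These 3 libraries had lens-fibre scores of 6.56, 7.36 and 6.52, and the part of lens transcripts in the correlations was not tested. With the replicate block edgeR called 0 genes against the other drugs, with 604 at an unadjusted p under 0.05. With 3 libraries a group and genes such as Ccl2, below 1 CPM in every metoprolol library, depth limits what can be seen at low counts.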

Other observations

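Of 14 oxidative stress and metallothionein genes 4 were called lower, where 4.91% of all genes were lower, and 0 higher, among them Hmox1, heme oxygenase, at 14.3, 16.3 and 16.3 CPM in the light libraries and 3.78, 6.02 and 1.91 CPM in the metoprolol libraries (-2.01 ± 0.61 (SE), adjusted p = 0.0466) and Mt1 (-1.32). With the lens covariate 1 of the 14 was called lower. The Hmox1 call was lost in 11 of 24 refits, with adjusted p up to 0.158, among them the lens covariate, the replicate block and the fits without any 1 light library or without metoprolol replicate 1 or 3. Ddit4, an inhibitor of mTOR signalling, rose by 0.71 ± 0.12 (SE), adjusted p = 0.00249, and Atf5, a stress-induced transcription factor, changed by -1.26. They were the 2 called among 19 integrated stress response genes, where 10.3% of all genes were called. With the lens covariate 1 of the 19 was higher and 4 lower, beside 661 and 646 of all 16249 genes. Of 16 heat shock genes 3 were higher, where 5.37% of all genes were higher, with Hspa1a at 0.87, and 2 were higher with the lens covariate. None of 22 cholesterol and fatty acid synthesis genes was called by edgeR, with a median of -0.03, 4 at an unadjusted p under 0.05, 1 called by DESeq2 and 0 by limma voom. Among 17 clock genes Arntl (0.28) was higher and Bhlhe40 (-0.62) lower, where 10.3% of all genes were called. The Arntl call was lost with the lens covariate. Both calls were lost without metoprolol replicate 1 or 2 or light replicate 2 or 3. Of 13 mitochondrially encoded transcripts mt-Nd4l was called (0.66 ± 0.12 (SE), adjusted p = 0.00342), where 10.3% of all genes were called. It stood at 1006, 916 and 902 CPM in the light libraries and 1291, 1754 and 1408 CPM in the metoprolol libraries.

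On FPKM per transcript with a pseudocount of 1, the transcript of Impg1, a matrix proteoglycan around photoreceptors, was called against no light (3.08) and against the other drugs (3.69), whereas the summed count of the gene differed by -0.21 and 0.10 with adjusted p of 0.632 and 0.95. This gene was chosen after its values were seen.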
